A study of Mus musculus with 6 samples.

Results

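The mitochondrial ribosomal protein genes are the nuclear genes for the protein components of the ribosome that works inside mitochondria. They were taken as the protein-coding genes whose symbols begin with Mrpl or Mrps followed by a number, which gave 78 of the 54532 genes in the count table, 49 with Mrpl symbols (large subunit) and 29 with Mrps symbols (small subunit). The libraries were made from mouse endothelial cells, which line blood vessels, kept in complete medium and exposed for 72 h to lentivirus. RBPMS cells (n = 3) received virus for overexpression of RBPMS, which binds RNA through an RRM domain and acts in splicing, and Control cells (n = 3) received an empty vector in the same kind of virus, so that all groups were transduced. The series places the experiment in the setting of heart failure during aging, and the comparison asks which transcripts differ when RBPMS is overexpressed. The genotype, strain and age of the source animals are not analysed here, and the labels do not state that replicates were separate cultures, so that p-values measure the spread between these libraries, which may be technical.

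The mitochondrial ribosome translates the few messenger RNAs that are made from mitochondrial DNA, all of which encode subunits of the respiratory chain and the ATP synthase. Its small subunit binds the messenger and decodes it, and its large subunit joins the amino acids and delivers the new chain towards the inner membrane. Its protein genes are all nuclear: some descend from the bacterial ribosome and others were added in the mitochondrial lineage. Symbols and structure do not coincide everywhere, because the proteins of Mrps30 and Mrps18a sit in the large subunit and the protein of Mrps36 is now known as a component of a dehydrogenase complex. Counts below follow the symbols.

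Members lay on 17 chromosomes, 11 of them on chromosome 11, and their median coding length was 582 bases, from 195 to 1326. Promoters from 250 bases before to 50 bases after the start were found in RefSeq (build GRCm38.p6) for 69 of the 78 genes, 75 promoters in all. An ETS core, CCGGAAG on either strand, stood in 26 of these 75 promoters (34.67%), against 11.56% of 21263 promoters of coding genes and 8.86% of all 32851 promoters. An NRF1 core, GCGCA and GCGC with any base between them on either strand, stood in 13 (17.33%), against 6.38% of coding and 4.6% of all promoters, and a YY1 core, AAGATGGCG on either strand, in 8 (10.67%), against 1.83% of coding and 1.4% of all promoters. NRF1 and ETS-family factors are textbook regulators of nuclear genes for mitochondria, and a match here describes letters only. The 120 bases upstream of the start are shown for the 4 members whose levels passed the test described further on, with any ETS core in capitals.
Mrpl27, chr11:94653671-94653790, plus strand: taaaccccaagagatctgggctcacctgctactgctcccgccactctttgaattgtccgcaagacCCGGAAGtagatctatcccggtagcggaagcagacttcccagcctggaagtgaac
Mrpl20, chr4:155802758-155802877, plus strand: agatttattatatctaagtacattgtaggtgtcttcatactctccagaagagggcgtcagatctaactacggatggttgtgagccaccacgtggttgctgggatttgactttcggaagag
Mrps26, chr2:130563637-130563756, plus strand: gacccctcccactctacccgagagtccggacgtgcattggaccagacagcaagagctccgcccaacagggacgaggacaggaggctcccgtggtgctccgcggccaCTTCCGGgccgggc
Mrps27, chr13:99344666-99344785, plus strand: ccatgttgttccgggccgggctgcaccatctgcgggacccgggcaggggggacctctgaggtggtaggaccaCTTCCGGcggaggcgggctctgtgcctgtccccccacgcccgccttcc
The ETS core lay at base -55 in Mrpl27, -14 in Mrps26 and -48 in Mrps27, and Mrpl20 held none of the 3 motifs in its window. Mrps26 also held NRF1 cores starting at -2 and 5, which overlap each other, and Mrps27 a YY1 core at 15, all of which run past the bases shown. Positions are of the first base of the match, counted from the RefSeq start.

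Total counts were 20453643, 21492957 and 18199702 in RBPMS replicates 1 to 3, and 15779567, 16229564 and 23076124 in Control replicates 1 to 3. Rbpms itself stood at 131, 148 and 133 TMM-scaled CPM (counts scaled to library size) in RBPMS cells, against 57.1, 56.8 and 55.2 CPM in Control cells (log2 fold change 1.27 without Control replicate 3, edgeR adjusted p = 3.6e-11; 1.28 with it, adjusted p = 0.0606). All 10 endothelial markers (Pecam1, Cdh5, Kdr, Vwf and others) were detected in every library and held 1.65% to 1.74% of counts in RBPMS libraries and 1.31% to 1.92% in Control libraries. Epithelial markers were at 0 apart from 1 count in Control replicate 2. Without Control replicate 3, edgeR called 4 of the 10 endothelial markers (40%, beside 7.24% of all genes tested), and with all 6 libraries 0. Without that library Vwf (log2 fold change -0.45) and Kdr (-0.21) were lower and Erg (0.21) and Emcn (0.17) higher. The median SE of the 10 was 0.05, against 0.09 over all genes tested, so smaller differences could pass the test here. The 6 leukocyte markers held 0.00539% to 0.00586% of counts in RBPMS libraries and 0.00412% to 0.00468% in Control libraries, nearly all from Cd68, which rose without Control replicate 3 (0.34, adjusted p = 0.00545; 0.36 with it, adjusted p = 0.587). The 6 fibroblast markers summed to 107 to 118 counts in RBPMS libraries and 101 to 124 in Control libraries. The part of these markers in the results below was not tested. Control replicate 3 stood apart: its log2 CPM correlated with the other libraries at 0.960 to 0.966 over genes, against 0.994 to 0.997 among those 5, and the pooled biological coefficient of variation was 0.0489 without it and 0.196 with it. Calls and fold changes are therefore given without and with this library.

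Without Control replicate 3, the transcripts of the mitochondrial ribosome differed little between RBPMS and Control cells. Of the 77 members that passed the filter on low counts, 1 rose (Mrps27) and 3 fell (Mrpl27, Mrpl20 and Mrps26), which is 5.19% of them, beside 7.24% of all 14123 genes tested (538 higher, 3.81%; 484 lower, 3.43%; edgeR quasi-likelihood test, Benjamini-Hochberg adjusted p under 0.05). The share of members called was thus close to the share of genes called at large. The median log2 fold change of the 77 members was -0.06, with quartiles of -0.14 and 0.02, against a median of -0.00251 over all genes tested. The 95% interval of the fold change lay within 1.5-fold in both directions for all 77 members, as it did for 72.7% of all genes tested. Taking every library, 0 of 77 members and 0 of 13898 genes (0%) passed the same test.

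**Figure D1:**
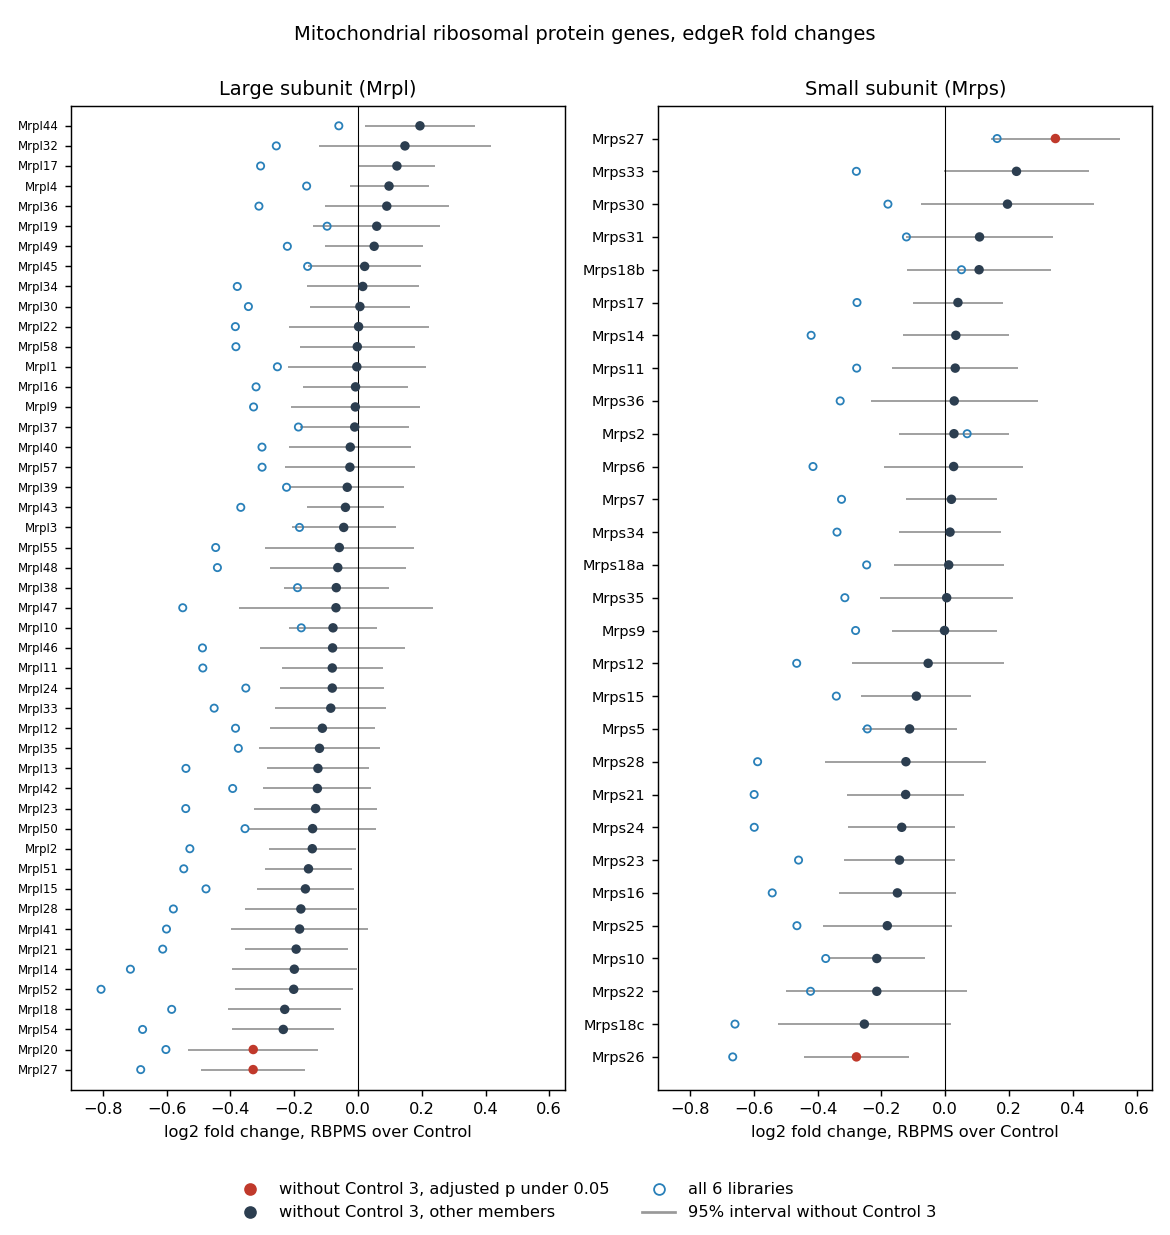
Log2 fold change of RBPMS over Control for each of the 77 tested members, large subunit left and small subunit right, sorted by the fit without Control replicate 3 (filled points, red where the edgeR adjusted p was under 0.05, with 95% intervals as lines). Open circles are the fit of all 6 libraries, which lie left of the filled point for 76 members, the exception being Mrps2.

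Among large subunit symbols 0 members rose and 2 fell of 48 tested, and the median log2 fold change was -0.07, with 37 of 48 (77.1%) below 0, against 50.7% of all genes tested. The small subunit had 1 member that rose and 1 that fell of 29 tested, a median of 0.0047 and 14 of 29 (48.3%) below 0. The difference between the subunits was not tested. In this fit genes at large also leaned with coding length. Their median log2 fold change was -0.03 in the quintile with the shortest coding sequences, -0.01 in the next and 0.03 in the longest. The 50 members in the shortest quintile had a median of -0.08, and the 22 in the next -0.02. The part of length in the member values was not tested. At an unadjusted p under 0.05 there were 13 large and 3 small subunit members, 16 of 77 in all, beside 20.9% of all genes. Members with a bacterial homolog and those specific to mitochondria, a grouping made with the values known, had medians of -0.07 (48 tested, 0 higher and 2 lower) and -0.04 (28 tested, 1 higher and 1 lower).

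Summed over members, the mitochondrial ribosome took 0.218%, 0.218% and 0.216% of all counts in RBPMS replicates 1 to 3, a mean of 0.217% ± 0.0012 (SD, n = 3), against 0.225%, 0.228% and 0.384% in Control replicates 1 to 3. The RBPMS libraries lay below every Control library, and Control replicates 1 and 2 lay much nearer to RBPMS cells than to Control replicate 3. In TMM-scaled CPM the sum in RBPMS cells was 0.962 times that of Control replicates 1 and 2. Large subunit genes took 0.146%, 0.145% and 0.144% in RBPMS cells, against 0.150%, 0.153% and 0.260% in Control cells. Small subunit genes took 0.0723%, 0.0722% and 0.0714% in RBPMS cells, against 0.0744%, 0.0745% and 0.124% in Control cells. The ratio of small to large subunit counts was 0.496, 0.496 and 0.495 in RBPMS cells and 0.496, 0.486 and 0.478 in Control cells, so the groups overlapped at Control replicate 1 at this precision.

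**Figure D2:**
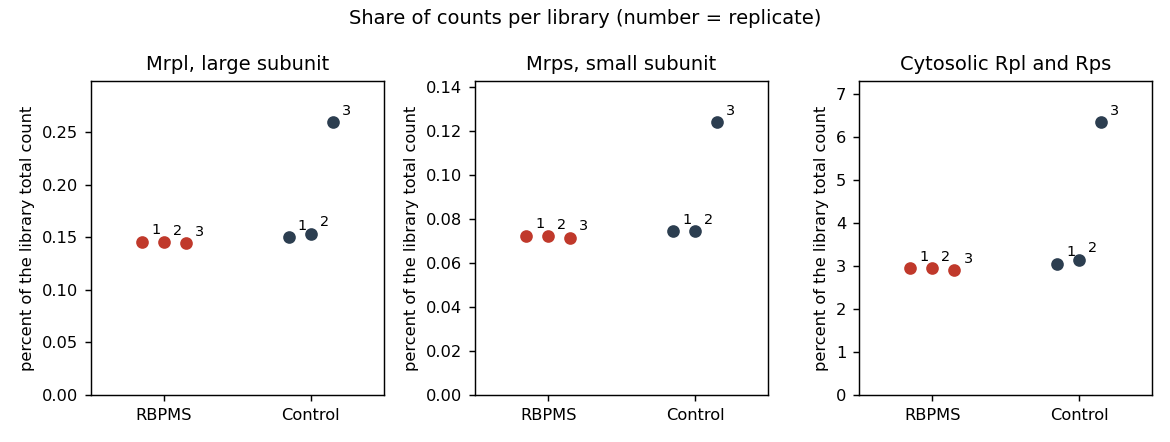
Percent of each library's total count taken by large subunit, small subunit and cytosolic ribosomal protein genes, RBPMS libraries left and Control libraries right, 1 point a library with its replicate number. In all 3 panels Control replicate 3 lies far above the other 5 libraries, which differ little.

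Mrpl27, whose bacterial homolog reaches towards the peptidyl transferase centre, fell. Its gene spans 94653767 to 94660089 on chromosome 11 (ENSMUSG00000024414), and its level was 23.9, 23.5 and 23.4 CPM in RBPMS cells, against 28.9, 30.5 and 54.0 CPM in Control cells. All RBPMS libraries lay below all Control libraries, and the RBPMS libraries differed by less than 1 CPM. The log2 fold change was -0.33 ± 0.08 (SE) without Control replicate 3 (edgeR adjusted p = 0.0127) and -0.68 ± 0.25 with it (adjusted p = 0.587). The counts behind these levels were 427 to 505 in RBPMS libraries and 459 to 1225 in Control libraries. Opposite to it, Eme1 shares 7.61% of its exon bases.

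Mrpl20, whose bacterial homolog binds ribosomal RNA early in assembly of the large subunit, also fell. Levels were 18.9, 17.3 and 17.0 CPM in RBPMS cells, against 20.4, 24.2 and 36.0 CPM in Control cells. The groups did not overlap, although Control replicate 1 stood nearer to RBPMS replicate 1 than to Control replicate 2. The log2 fold change of Mrpl20 was -0.33 ± 0.10 without Control replicate 3 (edgeR adjusted p = 0.0451) and -0.60 ± 0.21 with it (adjusted p = 0.587). Without Control replicate 2 as well it was -0.20 (adjusted p = 0.418), and without RBPMS replicate 1, 2 or 3 the adjusted p was 0.0647, 0.111 and 0.1, so that the call was lost in each case. The gene (ENSMUSG00000029066) lies at 155802878 to 155809975 on chromosome 4.

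Mrps26, a small subunit protein with no bacterial homolog, was the third member that fell. It stood at 36.6, 35.2 and 31.5 CPM in RBPMS cells and at 42.3, 41.3 and 80.0 CPM in Control cells. Again every RBPMS library lay below every Control library. For Mrps26 the log2 fold change was -0.28 ± 0.08 without Control replicate 3 (edgeR adjusted p = 0.0339) and -0.67 ± 0.27 with it (adjusted p = 0.587). Without both Control replicate 3 and RBPMS replicate 3 it was -0.217 (adjusted p = 0.0867), so that the call was lost. The gene (ENSMUSG00000037740) spans 130563742 to 130568695 on chromosome 2.

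Mrps27, a small subunit protein of the pentatricopeptide repeat family, which bind RNA, was the member that rose. It had 25.2, 21.9 and 26.4 CPM in RBPMS cells, against 20.2, 18.3 and 27.0 CPM in Control cells. RBPMS libraries were above Control replicates 1 and 2, while Control replicate 3 was the highest of all 6. The log2 fold change was 0.35 ± 0.10 without Control replicate 3 (edgeR adjusted p = 0.0339) and 0.16 ± 0.17 with it (adjusted p = 0.662). With RBPMS replicate 1 or 3 left out beside Control replicate 3, it was 0.326 and 0.294. The adjusted p was then 0.117 and 0.0923, so that the call was lost in each case. On the opposite strand 6430562O15Rik shares 24.18% of the Mrps27 exon bases. That transcript had 36, 40 and 24 counts in RBPMS libraries and 15, 29 and 13 in Control libraries, against 470 to 516 and 296 to 612 counts of Mrps27 itself, and the sources used here do not say whether counting used strand. The gene (ENSMUSG00000041632) lies at 99344786 to 99415562 on chromosome 13.

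With Control replicate 3 set aside, the 4 calls rest on 2 Control libraries. Leaving out Control replicate 2 beside replicate 3 left 1 Control library. The log2 fold changes were then -0.288 for Mrpl27, -0.198 for Mrpl20, -0.295 for Mrps26 and 0.274 for Mrps27. Leaving out Control replicate 1 in its place gave -0.264 for Mrps26 and 0.419 for Mrps27. Fits with 1 Control library are given here for effect size only, and they do not show that the calls hold. Leaving out RBPMS replicates 1, 2 and 3 gave 2, 3 and 1 members called by edgeR. Genes called at large were 616 of 13819 without RBPMS replicate 1 and 1017 of 13964 without RBPMS replicate 3. The number at large without RBPMS replicate 2 is not given here, so its 3 members cannot be set against it. In the DESeq2 Wald test on the same 5 libraries 1 member was called, Mrpl27, beside 776 of 14123 genes. The adjusted p in that test was 0.0561 for Mrps26, 0.0679 for Mrps27 and 0.11 for Mrpl20.

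**Figure D3:**
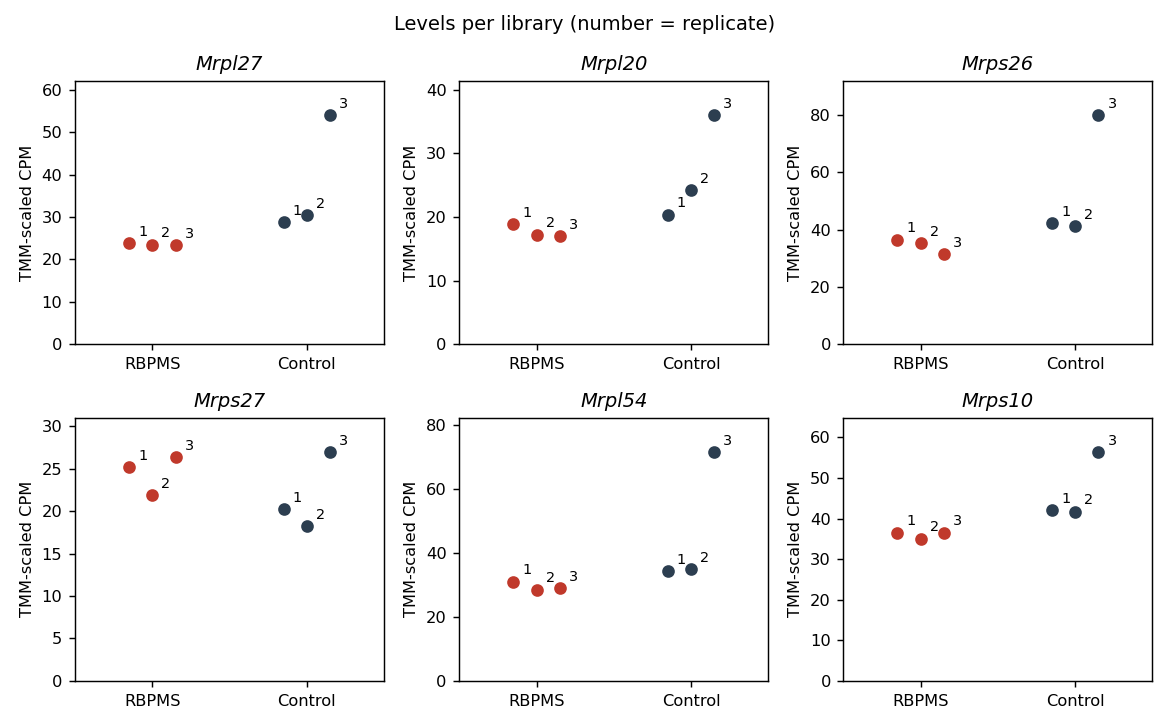
TMM-scaled CPM (axis from 0) of the 4 called members and of Mrpl54 and Mrps10, RBPMS libraries left and Control libraries right, with replicate numbers. RBPMS libraries lie below every Control library in all panels but Mrps27, where they lie above Control replicates 1 and 2 and Control replicate 3 is highest at 27.0 CPM.

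Just outside the threshold were a large and a small subunit gene with lower levels. Mrpl54, a mitochondria-specific large subunit protein, had 31.0, 28.6 and 28.9 CPM in RBPMS cells, against 34.4, 35.1 and 71.6 CPM in Control cells (log2 fold change without Control replicate 3 of -0.23 ± 0.08, edgeR adjusted p = 0.0693). Mrps10, a homolog of a bacterial protein of the head of the small subunit, had 36.5, 35.1 and 36.6 CPM in RBPMS cells, against 42.0, 41.7 and 56.4 CPM in Control cells (-0.21 ± 0.07, adjusted p = 0.0785). Taking all 6 libraries, the values were -0.68 for Mrpl54 and -0.37 for Mrps10 (adjusted p = 0.587 each). The groups did not overlap for either gene. Further low values that missed the threshold were -0.25 for Mrps18c (adjusted p = 0.277), -0.23 for Mrpl18 (0.111) and -0.21 for Mrps22 (0.406), in the same edgeR fit. Mrpl52, with 20.6, 19.0 and 19.1 CPM in RBPMS cells against 23.3, 21.7 and 57.2 CPM in Control cells, and Mrpl14, with 22.7, 25.5 and 20.1 against 26.1, 26.4 and 59.3 CPM, were at -0.20 each (adjusted p = 0.193 and 0.228). Over all 6 libraries Mrpl18, Mrps22, Mrpl52 and Mrpl14 were at -0.58, -0.42, -0.81 and -0.71, each with an adjusted p of 0.587. For Mrpl52 and Mrpl14 the groups did not overlap, by margins under 3 CPM in the nearest libraries.

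At the upper end, Mrpl44, which carries a ribonuclease III-like domain, had 29.0, 33.1 and 31.9 CPM in RBPMS cells, against 26.2, 28.6 and 43.0 CPM in Control cells. Mrpl44 had a log2 fold change of 0.19 ± 0.08 without Control replicate 3 (edgeR adjusted p = 0.178) and -0.06 ± 0.20 with it (0.886). Mrps33, a small subunit protein, had 14.7, 13.2 and 14.9 CPM in RBPMS cells, against 12.6, 11.8 and 27.2 CPM in Control cells, with 0.22 ± 0.11 (0.251) and -0.28 ± 0.32 (0.682) in the same fits. In both genes the sign of the difference turned with Control replicate 3. The large subunit genes Mrpl32, Mrpl17 and Mrpl4 (0.15, 0.12 and 0.10 without that library, -0.26, -0.31 and -0.16 with it) and Mrps30 (0.20 and -0.18) turned in the same way, as did Mrps31 (0.11 and -0.12) and Mrpl19 (0.06 and -0.10), and none passed the test in either fit. Among 5 libraries, 4 members lay wholly above Control in RBPMS cells (Mrps27, Mrps33, Mrpl44 and Mrps18b), beside 18.3% of all genes, and 21 lay wholly below, beside 19% of all genes.

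The 3 genes of the Mrps18 family encode proteins at different places of the ribosome, and their values lay on either side of 0. Mrps18a, in the large subunit, had 25.9, 27.3 and 24.3 CPM in RBPMS cells, against 25.1, 26.2 and 40.4 CPM in Control cells (log2 fold change 0.01 without Control replicate 3, 95% interval -0.16 to 0.18). Mrps18b had 13.6, 12.6 and 13.2 CPM in RBPMS cells, against 11.9, 12.5 and 13.6 CPM in Control cells (0.11, -0.12 to 0.33). Mrps18c, the closest to the bacterial protein, had 8.80, 9.72 and 11.7 CPM in RBPMS cells, against 12.4, 11.5 and 23.5 CPM in Control cells (-0.25, -0.52 to 0.02). With all 6 libraries the values of Mrps18a, Mrps18b and Mrps18c were -0.25, 0.05 and -0.66, so that the sign of Mrps18a turned. None of the 3 passed the edgeR test in either fit, and the intervals of Mrps18b and Mrps18c overlap. Gm43511, on the same strand, shares 23.23% of the Mrps18c exon bases, with 18, 17 and 20 counts in RBPMS libraries and 21, 10 and 7 in Control libraries.

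With all 6 libraries the picture of the members was of values below 0 that did not pass the test. Log2 fold changes were below 0 for 74 of 77 members, beside 51% of all genes, with a median of -0.37, against -0.00832 over all genes tested, and a range from -0.81 (Mrpl52) to 0.16 (Mrps27). The large subunit median was -0.38 (48 of 48 below 0) and the small subunit median -0.34 (26 of 29). Of the 77, 0 passed edgeR's adjusted threshold and 4 had an unadjusted p under 0.05 (Mrpl20, Mrpl27, Mrps10 and Mrps26), beside 7.56% of all genes. DESeq2 and limma-voom on the same 6 libraries also called 0 members. Limma-voom with a weight for each library called 5 of 77 members, beside 1087 of 13898 genes. RBPMS libraries lay wholly below Control libraries for 21 members, beside 12.5% of all genes, and wholly above for 0, beside 12.2%. The 95% interval lay within 1.5-fold for 12 of 77 members and for 38.6% of all genes, and the median SE of the members was 0.24, against 0.08 without Control replicate 3.

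This shift followed 1 library. Control replicate 3 was the highest of the 6 libraries for 75 of 78 members, and the summed member CPM in it was 1.73 times the mean of Control replicates 1 and 2. The log2 difference between Control replicate 3 and the mean of the other 2 controls had a median of 0.83 over the 77 tested members, against 0.00565 over all genes tested, and it was above 0 for 76 of 77. It was largest for Mrpl52 (1.33), and Mrps2 was the exception, at -0.12, with 36.7, 35.7 and 41.8 CPM in RBPMS cells and 39.1, 35.6 and 34.2 CPM in Control cells. The medians for the large and small subunits were 0.85 and 0.78, and 8.41% of all genes tested lay above the member median.

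Coding length moved with this deviation. Over tested genes with a coding sequence the median deviation of Control replicate 3 was 0.59 in the quintile of genes with the shortest coding sequences (60 to 732 bases), 0.29 in the next (735 to 1155), 0.05 in the third (1158 to 1626), -0.16 in the fourth (1629 to 2490) and -0.62 in the longest. Members were short: 50 lay in the first quintile, with a median deviation of 0.91, 22 in the next, with 0.63, and 5 in the third, with 0.48, and none were longer. Their median was above that of the genes as a whole in each of these 3 quintiles. With an offset fitted on transcript length, an alternative chosen after the data were seen, the member median over all 6 libraries was -0.28, and with an offset on annotated gene length it was -0.32, in place of -0.37.

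**Figure D4:**
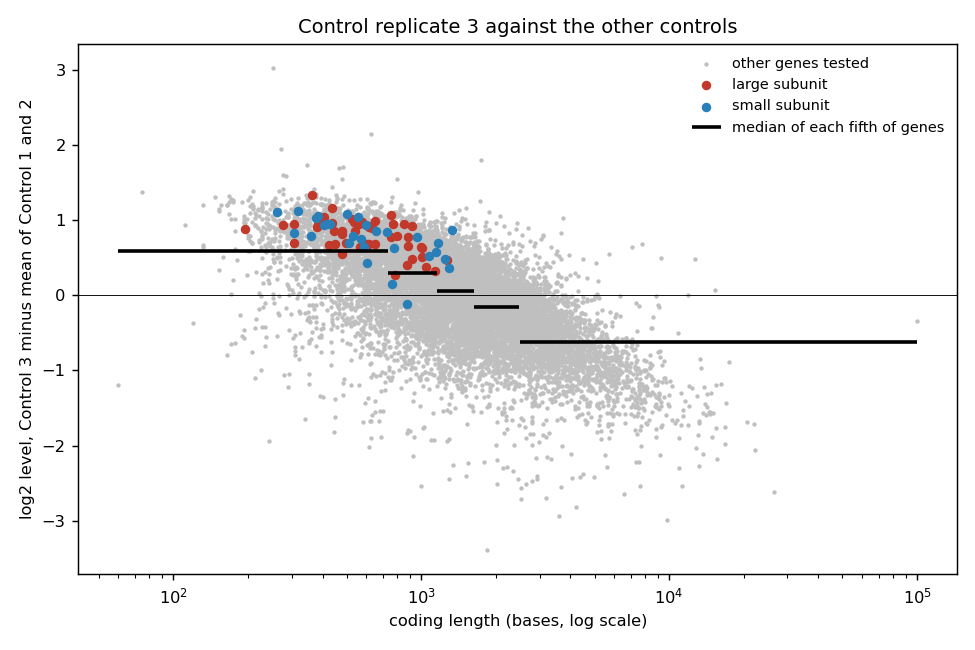
Log2 level in Control replicate 3 minus the mean of Control replicates 1 and 2 (y axis) against coding length in bases (log x axis) for tested genes with a coding sequence in grey, large subunit members in red and small subunit members in blue, with black bars at the median of each quintile of genes. Members lie at the short end and, apart from Mrps2 at -0.12, above 0.

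Levels can be compared between members per kilobase of 1 annotated transcript, as means over the 5 libraries without Control replicate 3. Mrps21, a homolog of a small bacterial ribosomal protein, stood highest at 54.9 CPM per kb (51.9 to 63.6 over libraries), then Mrpl4, a homolog of a bacterial protein that lines the exit tunnel, at 53.5 (49.3 to 56.0), and Mrpl54 at 52.3 (47.3 to 58.0). The ranges of these 3 overlap. The lowest tested members were Mrpl47 at 2.53 CPM per kb (2.08 to 2.86) and Mrps30 at 3.24 (2.73 to 3.78), whose ranges overlap slightly. The median tested member, Mrps2, stood at 18.2. The order depends on the annotated ends: per kilobase of coding sequence Mrpl17 (178 CPM per kb), Mrps17 (144) and Mrpl43 (144) came first, and Mrps30 (8.11) was again among the lowest.

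Mrpl53, a mitochondria-specific large subunit gene on chromosome 6, was at 0 counts in all 6 libraries and was the member that did not pass the filter. All 695 bases of its annotated transcript, 87.97% of its exon bases, overlap Gm42688 on the same strand, which had 34, 29 and 17 counts in RBPMS libraries and 23, 28 and 34 in Control libraries. The reads of these loci cannot be told apart, and a count of 0 here is not evidence of no transcript. In all, 33 members share exon bases with another gene, 8 of them on the same strand. Mrps34 shares 63.42% of its exon bases with Mapk8ip3 on the opposite strand and 36.97% with Nme3 on its own strand, and Nme3 was at 0 in every library. Mrps25 shares 69.8% with Nr2c2 on the opposite strand. Among 5 named processed pseudogenes of members, Mrpl48-ps had the most counts, with 83, 114 and 74 in RBPMS libraries and 57, 76 and 123 in Control libraries.

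Other genes of mitochondrial translation gave few calls. Without Control replicate 3, edgeR called 0 of 5 mitoribosomal proteins with other symbols, 0 of 26 assembly and rRNA modification genes, 0 of 16 translation factors and insertion genes and 0 of 17 mitochondrial aminoacyl-tRNA synthetases, and the median log2 fold changes of these lists were -0.04, -0.02, -0.02 and -0.01. With all 6 libraries the medians were -0.20, -0.20, -0.12 and 0.00344, again with 0 called. Limma-voom called 0 in these lists in both fits, and edgeR gave 1, 1, 1 and 0 genes with an unadjusted p under 0.05 without Control replicate 3. With no filter on low counts, and without Control replicate 2, edgeR called 1 of the synthetases. Dap3, a GTP-binding small subunit protein, had 46.8, 48.0 and 44.9 CPM in RBPMS cells, against 43.2, 44.2 and 72.9 CPM in Control cells. Tufm, the mitochondrial elongation factor Tu, had 79.1, 78.9 and 83.0 CPM in RBPMS cells, against 80.3, 85.9 and 122 CPM in Control cells. For both genes Control replicate 3 was the highest library, as for most members. Of 14 tested biogenesis regulators, 0 rose and 1 fell (7.14%, close to the 7.24% of all genes tested). It was Polg, the catalytic subunit of the mitochondrial DNA polymerase, with 92.5, 89.2 and 83.5 CPM in RBPMS cells against 102, 102 and 59.7 CPM in Control cells. Its log2 fold change was -0.20 ± 0.05 (edgeR adjusted p = 0.0229) and 0.01 with all 6 libraries (adjusted p = 0.983). Polg was not called when Control replicate 1 or 2 or RBPMS replicate 3 was left out beside Control replicate 3.

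The messengers that these ribosomes translate were higher in RBPMS cells in part. Without Control replicate 3, 5 of 12 tested mitochondrially encoded mRNAs rose and 0 fell (41.7%, beside 7.24% of all genes tested), and 11 of 12 had values above 0, with a median log2 fold change of 0.20. Their median SE was 0.05, against 0.09 over all genes tested, so smaller differences could pass the test here. The most abundant, mt-Co1 (cytochrome c oxidase), had 14800, 14691 and 15947 CPM in RBPMS cells, against 13291, 13387 and 12641 CPM in Control cells (0.18 ± 0.05, edgeR adjusted p = 0.0383). The RBPMS libraries of mt-Co1 lay above all 3 Control libraries. Likewise mt-Nd4, a subunit of complex I, had 2339, 2343 and 2455 CPM in RBPMS cells, against 1857, 2104 and 2009 CPM in Control cells (0.27 ± 0.05, adjusted p = 0.00379). Also higher was mt-Co3 (0.40), whose level was far below that of mt-Co1, with 34.2, 34.4 and 38.8 CPM in RBPMS cells. In Control cells it had 30.6, 23.7 and 45.1 CPM, and why the level was low was not tested. The others that rose were mt-Nd5 (0.21) and mt-Nd6 (0.21). With all 6 libraries mt-Co3, mt-Nd5 and mt-Nd6 stood at 0.11, 0.43 and -0.17, so that the sign of mt-Nd6 turned. The count was 3 without Control replicate 2 and 2 without RBPMS replicate 3, and 11 with no filter on low counts and 9 with an offset on length. With all 6 libraries 0 of 12 passed edgeR's test and 1 had an unadjusted p under 0.05, with a median of 0.10, and adjusted p was 0.591 for mt-Co1 and 0.587 for mt-Nd4.

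Of the mitochondrial ribosomal RNAs, mt-Rnr2 of the large subunit had 255, 266 and 296 CPM in RBPMS cells, against 234, 243 and 486 CPM in Control cells (0.19 ± 0.06 without Control replicate 3, edgeR adjusted p = 0.0398). The small subunit RNA mt-Rnr1 had 338, 337 and 368 CPM in RBPMS cells, against 307, 336 and 649 CPM in Control cells (0.11 ± 0.05, adjusted p = 0.213). Both signs turned with all 6 libraries, to -0.24 for mt-Rnr2 (adjusted p = 0.691) and -0.31 for mt-Rnr1 (adjusted p = 0.632), and neither passed. Ribosomal RNA was removed before these libraries were made, so that what remains of these RNAs also depends on that step, whose part was not tested.

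**Figure D5:**
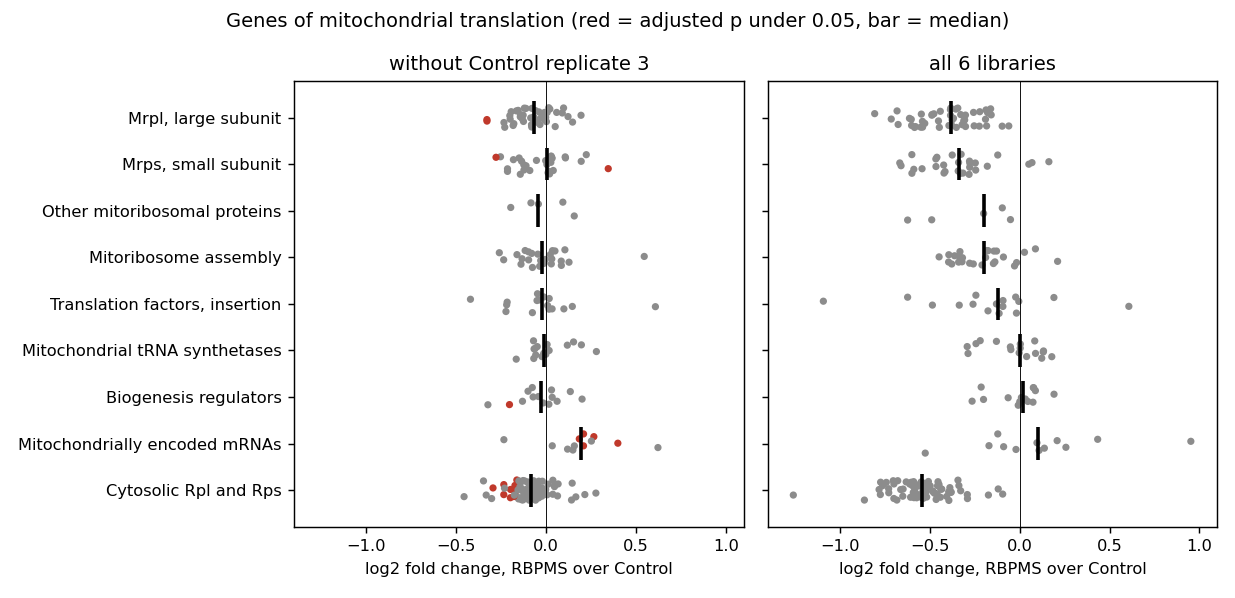
Log2 fold change of RBPMS over Control for each tested gene of the subunits and of the related lists, without Control replicate 3 left and with all 6 libraries right (red points have an edgeR adjusted p under 0.05, black bars are medians). Without that library the member medians are -0.07 and 0.0047 and the mitochondrially encoded mRNAs stand at 0.20, and with it the members stand at -0.38 and -0.34.

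The 80 tested cytosolic ribosomal protein genes, which build the ribosome of the cytoplasm, had a median log2 fold change of -0.08 without Control replicate 3, with 0 higher and 9 lower (11.2%, beside 7.24% of all genes), and -0.54 with all 6 libraries, with 80 of 80 below 0 and 0 called. They took 2.95%, 2.96% and 2.91% of counts in RBPMS cells, against 3.06%, 3.15% and 6.35% in Control cells. Among those that fell was Rplp2, a stalk protein, with 254, 266 and 240 CPM in RBPMS cells against 308, 315 and 678 CPM in Control cells (-0.30 ± 0.05 without Control replicate 3, edgeR adjusted p = 0.000589; -0.77 with it, adjusted p = 0.587). For both kinds of ribosome Control replicate 3 had the highest share and the RBPMS libraries lay below all Control libraries.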

How the data were processed

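Total RNA was depleted of ribosomal RNA, made into libraries with an NEB kit and sequenced on Illumina instruments, per the labels' protocols. The authors deposited whole-number counts per gene, and the submitters' processing notes name FastQC, Salmon and mm10. The sources used here give no versions, strand use or step that made whole numbers, and reads of overlapping genes may be split.

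Counts were used as deposited, in R 4.3.3. Genes kept by filterByExpr were normalised with TMM and tested for group alone with the quasi-likelihood test of edgeR 4.0.16, with p-values adjusted by Benjamini-Hochberg over every gene tested and a threshold of 0.05, on all 6 libraries and without Control replicate 3. Levels are TMM-scaled CPM, and log2 differences between libraries used a pseudocount of 0.5 CPM. Standard errors were the absolute log2 fold change divided by the root of F. Alternatives used DESeq2 1.42.0 and limma 3.58.1. The fit was tested on simulated data. Annotated gene lengths are those of the deposited table, and transcript and coding lengths came from GENCODE M21.

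Chi-square per degree of freedom between libraries of a group was at least 3.19 in every pair, so no library repeated another. Members and lists were chosen with earlier results of these data known. Named members were those called, those with the 6 highest and 6 lowest log2 fold changes of each fit (mean log2 CPM of at least 1), the extremes of level per length and of the deviation of Control replicate 3, the Mrps18 genes, the member below the filter and some that overlap other genes. Mrps10 and Mrps22 were named outside this rule. From other lists up to 4 called or 2 abundant genes were named, except the mitochondrially encoded mRNAs, where all 5 called were named.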

Additional observations from a re-analysis of the deposited data

How the results depend on the processing

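Without Control replicate 3 the main fit called 4 members, 5.19% of those tested, beside 7.24% of all genes tested. Where no number of all genes is given below, a count of members cannot be set against genes at large. With an offset on annotated gene length, and with DESeq2 size factors or total size in place of TMM, 4 members were again called. Either other filter (none, or 1 CPM in 3 libraries) also gave 4, and limma-voom and an offset on transcript length gave 3. Quality weights gave 2, beside 1121 of 14123 genes, and the DESeq2 Wald test gave 1, beside 776 of 14123. Leaving out each further library gave 0 to 3, with medians of -0.0853 to -0.0396. With all 6 libraries, 0 members were called under each of these settings except limma-voom with quality weights, which gave Control replicate 3 a weight of 0.0293. That setting called 5 members (1 higher, 4 lower), beside 1087 of 13898 genes, with a member median of -0.0603 in place of -0.375. Leaving out each library gave 0 to 4, with medians of -0.5 to -0.0586, and the 4 came without Control replicate 3.

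Whether replicate numbers pair the libraries was not settled. Correlations of same-numbered deviations were 0.0451, -0.0318 and 0.0046, and the libraries of number 1 alone correlated best with their own number. Deviations were taken from group means that include Control replicate 3, which stands apart, so this check could miss a pairing. With the replicate block 0 members were called over all 6 libraries (median -0.314) and 1 without Control replicate 3 (median -0.043), beside 917 of 14123 genes. In that second fit the block left 1 mitochondrially encoded mRNA called in place of 5 and 0 biogenesis regulators in place of 1 (Polg), and called 1 aminoacyl-tRNA synthetase in place of 0.

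Some signs turned. Over all 6 libraries quality weights gave 0.158 for Mrpl44, 0.0778 for Mrpl19, 0.108 for Mrps31, 0.209 for Mrps33, 0.173 for Mrps30, 0.12 for Mrpl32, 0.128 for Mrpl17, 0.0958 for Mrpl4 and 0.0122 for Mrps18a. An offset on gene length gave 0.0778 for Mrpl44, and 1 on transcript length 0.091 for Mrpl44, 0.0134 for Mrps31 and 0.0103 for Mrpl4. Leaving out each library gave -0.197 to 0.194 for Mrpl44, -0.191 to 0.0588 for Mrpl19, -0.255 to 0.108 for Mrps31, -0.488 to 0.224 for Mrps33, -0.374 to 0.195 for Mrps30, -0.457 to 0.147 for Mrpl32, -0.5 to 0.122 for Mrpl17, -0.298 to 0.0974 for Mrpl4, -0.372 to 0.0111 for Mrps18a and -0.00468 to 0.123 for Mrps2. Without Control replicate 3, Mrps2 was at -0.00482 under quality weights and -0.043 under the replicate block, and further omissions gave -0.031 to 0.0538 for Mrps18a, -0.0402 to 0.0938 for Mrps2, -0.189 to 0.0501 for Mrpl47 and -0.265 to 0.031 for Mrps21. The cause was not tested.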
